A study of Mus musculus with 90 samples.

Results

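Heart and skeletal muscle are the striated muscles of the body, and the comparison here sets the 6 heart libraries of a 15-tissue mouse survey against its 6 libraries labelled muscle, 12 of 90 libraries in all. The libraries were chosen by their tissue label and not by any measured value. They come from wild-type females, C57BL/6 in the labels and C57BL/6J in the study's text, given as 10 weeks old by the labels and as younger by the study's methods, that carried no transgene and had no treatment. Mice were assigned to estrus or diestrus by vaginal smear, and each tissue has 3 libraries in each phase. By the study's account the replicates of a phase are 3 mice that each gave all 15 tissues, so heart and muscle libraries share animals, but the labels do not say that a replicate number marks the same mouse in both. The sources call the muscle skeletal without saying which muscle it was, and do not say whether whole hearts or chambers were taken. Values are FPKM (fragments scaled to the length of the transcript and the size of the library) listed for 20414 genes. A gene was tested where its mean over the 12 libraries reached 1 FPKM, which 11452 genes did.

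Both tissues contract through sarcomeres, in which myosin thick filaments slide along actin thin filaments when calcium binds troponin, and both build the same machine from partly different members of the same gene families. Cardiac myocytes beat without rest, are joined end to end by intercalated discs, are paced by their own ion channels and burn mainly fatty acids, lactate and ketone bodies. Skeletal fibres are long fused cells driven by motor nerves at neuromuscular junctions. They fall into slow, oxidative fibres and fast fibres that rely more on glycogen and phosphocreatine, and slow fibres share several sarcomere genes with the ventricle of the heart.

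The files hold no counts. At the best read number tried, 68.9 to 81.1% of the low values of a library lay within 0.2 of a whole read. Whole reads were thus not recovered. The read numbers tried stopped short of the approximate number per sample in the study's methods, so the search cannot decide the depth. The methods give reads generated and not reads behind the values, so the depth is treated as unknown. The 10 highest genes take 15.5 to 17.0% of the summed FPKM in heart and 26.2 to 33.4% in muscle. FPKM is a share of a library, and the median tested gene is listed higher in heart by 0.46 on the log2 scale. Counts over all genes and over gene lists are therefore also given after every library was divided by its median ratio to the mean library, called the median-ratio scale, on which the median difference is 0.01. The correlation of log2(FPKM + 1) across tested genes had a mean of 0.986 between libraries of the same tissue and 0.779 between libraries of different tissues. Tissue accounted for 90.8% of the summed squares of these values, phase within a tissue for 2.94% and the libraries of a group for 6.26%. Genes are not independent replicates, and these are descriptions.

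Markers of cardiomyocytes and of fast fibres followed the tissue labels. All 10 cardiomyocyte markers were called higher in heart on the deposited scale, and 9 of them on the median-ratio scale, where the atrial light chain Myl7 was not. All 11 markers of fast fibres were called higher in muscle on both scales. Their summed level was 79590 to 104300 FPKM in muscle against 5.27 to 11.9 FPKM in heart. Over all tested genes, 22.7% were called higher in heart and 5.56% in muscle (10.8% and 10.2% on the median-ratio scale). Markers near 0 in the other tissue, such as Nkx2-5 and Myh4, passed the filter on low values through their own tissue alone. These counts therefore describe the markers and are no test of the labels. Of 8 slow fibre markers, which include Myl2 and Myl3, 4 were called higher in heart and 1 in muscle (4 and 2 on the median-ratio scale). Their summed level was 21420 to 25810 FPKM in heart and 57.15 to 3446 FPKM in muscle. Of 7 tested atrial markers, 2 were called higher in heart and 1 in muscle (1 and 1 on the median-ratio scale). Some libraries stand apart from the others of their tissue, and the genes given in this paragraph were picked after their values were seen. In heart estrus replicate 3, the atrial genes Sln, Myl4 and Myl7 were listed at 334.1, 811.6 and 973.6 FPKM, where the other 5 heart libraries had at most 2.72, 6.95 and 3.83 FPKM. In muscle estrus replicates 2 and 3, the slow fibre genes were low: the slow troponin T Tnnt1 was listed at 1.90 and 3.15 FPKM there, and at 118.1 to 483.4 FPKM in the other 4 muscle libraries. The slow myosin Myh7 followed it, with 0.59 and 0.19 FPKM in that pair of libraries and 55.7 to 246.6 FPKM in the other 4. The parts of atrial tissue and of slow fibres in the results below were not tested, and where the call of a gene described here changed, or a list count moved by over 1.5 times, without these 3 libraries, this is said beside it.

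**Figure D1:**
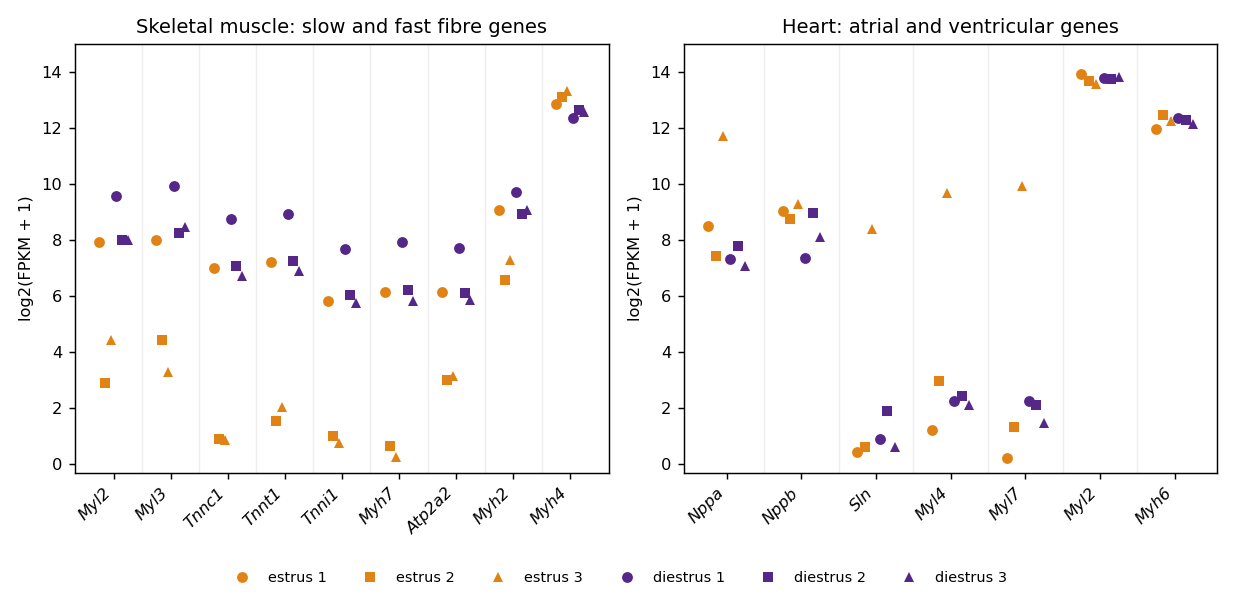
log2(FPKM + 1) of slow and fast fibre genes in the 6 muscle libraries (left) and of atrial and ventricular genes in the 6 heart libraries (right), with 1 point per library, coloured by phase and shaped by replicate number. Muscle estrus 2 and 3 lie below the other 4 muscle libraries for all slow fibre genes drawn, and heart estrus 3 lies above the other 5 heart libraries for Nppa, Sln, Myl4 and Myl7.

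Of the 11452 genes, 2605 (22.7%) were called higher in heart and 637 (5.56%) higher in muscle, where a call needs an absolute difference of 1 on the log2(FPKM + 1) scale and an adjusted p of at most 0.05 in limma. On the median-ratio scale the split was even, with 1232 (10.8%) higher in heart and 1166 (10.2%) higher in muscle. All 637 genes called higher in muscle were called on both scales, as were 1232 of the 2605 called higher in heart, and no gene was called in opposite directions. The 6 heart values and the 6 muscle values did not overlap for 6540 genes with heart higher (57.1%) and for 1505 genes with muscle higher (13.1%), so a gene without overlap is common here. The direction of large differences turned with the cutoff. By at least 3 on the log2 scale, 185 genes were called higher in heart and 142 in muscle. By at least 5 these were 48 and 56, and by at least 8 they were 8 and 20. Without heart estrus replicate 3 and muscle estrus replicates 2 and 3, the calls were 2288 and 644.

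**Figure D2:**
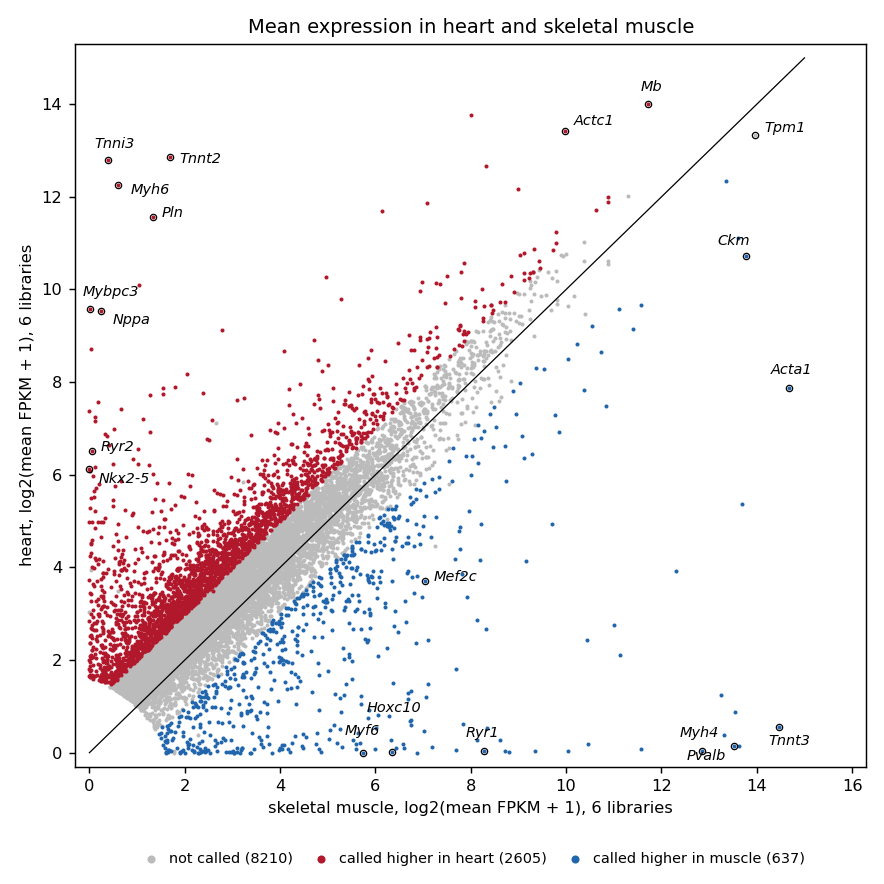
Mean expression of the 11452 tested genes in the 6 muscle libraries (x axis) and the 6 heart libraries (y axis), as log2(mean FPKM + 1), coloured by call, with the line of equal levels. Sarcomere genes such as Tnni3 and Tnnt3 lie at the outer ends of both arms, while Tpm1 and Mb are high in both tissues.

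The 10 genes with the largest differences toward heart were Tnni3, Myh6, Tnnt2, Pln, Mybpc3, Fhl2, Nppb, Nppa, Mylk3 and Lrrc10, and the 10 toward muscle were Tnnt3, Tnnc2, Pvalb, Atp2a1, Myh4, Mylpf, Tnni2, Actn3, Myoz1 and Myh1. The largest of all was Tnnt3, the fast skeletal troponin T, listed at 20850, 22680 and 24300 FPKM (lowest, median and highest) in muscle and at 0.05, 0.435 and 1.03 FPKM in heart, a log2 difference of -13.95 ± 0.113 (SE). Its counterpart in heart was cardiac troponin I, Tnni3, with 6455, 7262 and 7522 FPKM in heart and 0.13, 0.28 and 0.50 FPKM in muscle, a difference of 12.39 ± 0.0754. The parvalbumin gene Pvalb, a soluble calcium buffer of fast fibres, was listed at 8971, 11450 and 14580 FPKM in muscle and at no more than 0.33 FPKM in heart. Since the libraries are bulk tissue, fewer cells of a type and less RNA per cell cannot be told apart in any of these values.

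The sarcomere was compared through 32 pairs of related genes known for cardiac and skeletal use. In 26 of the 32 pairs the heart form was called higher in heart and the muscle form higher in muscle. On the median-ratio scale this was so in 25 pairs. Over all tested genes, 22.7% were called higher in heart and 5.56% in muscle. The pairs were chosen for their known use, with earlier results of these data known. Members such as Mybpc3, at most 0.02 FPKM in muscle, and Ryr1, at most 0.03 FPKM in heart, passed the filter through their own tissue alone. The counts over the pairs and their forms therefore describe these genes and are no test against all genes. In 24 pairs the heart form was the larger of its pair in all 6 heart libraries and the smaller in all 6 muscle libraries. The names are labels of the list, since in 5 pairs the muscle form was the larger in all 12 libraries. Heart forms reached their highest mean of all 15 tissues in heart for 26 of 32 genes, and muscle forms in muscle for 28 of 32. Among all genes called higher in heart, 12.67% had their highest mean there. Among all genes called higher in muscle, 50.39% had theirs in muscle. Levels of paired genes can be set side by side since FPKM is per transcript length, but close copies such as the actins and the myosin heavy chains share sequence, and how RSEM divided their reads is not known, so low values of a copy beside a very high partner are uncertain.

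**Figure D3:**
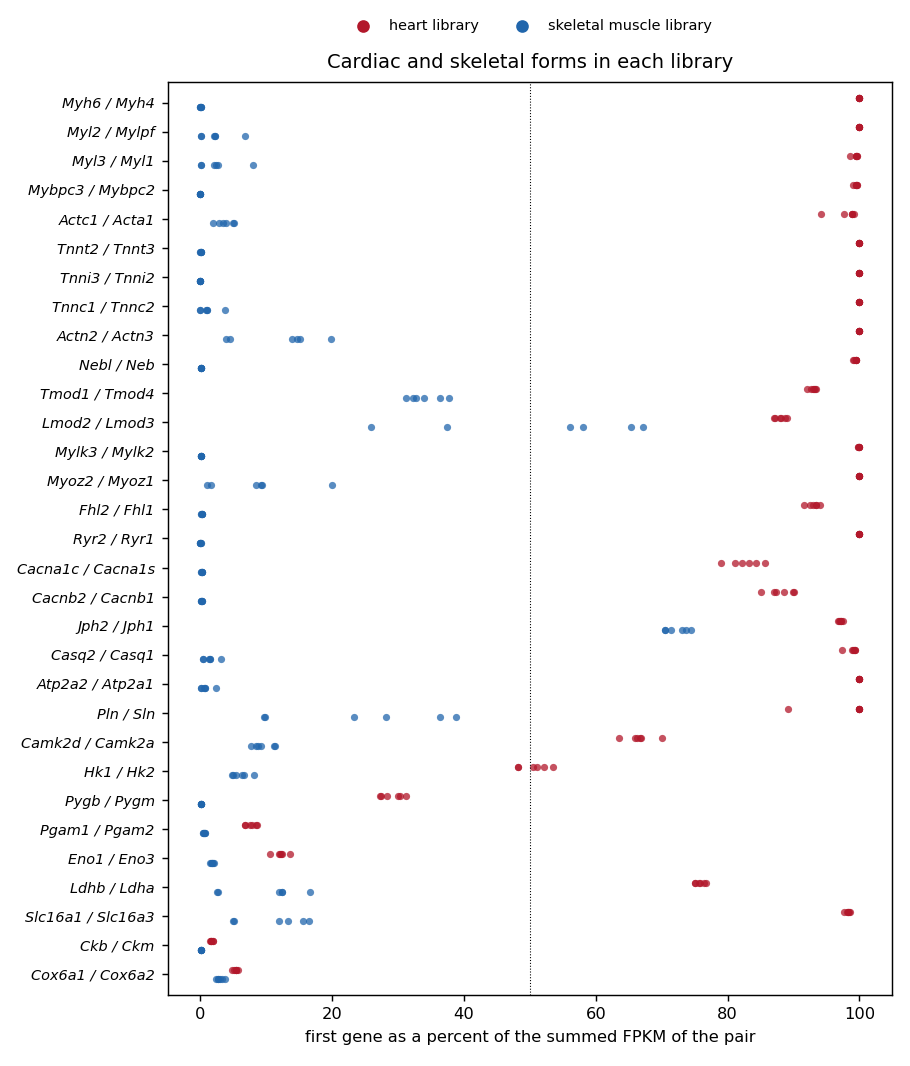
The first gene of each of 31 of the 32 pairs as a percent of the summed FPKM of the pair, with 1 point per library, heart in red and skeletal muscle in blue, and a dotted line at 50%. Most pairs lie at opposite ends in heart and muscle, while Jph2 / Jph1 lies above 50% in all 12 libraries and the pairs Pygb / Pygm, Pgam1 / Pgam2, Eno1 / Eno3, Ckb / Ckm and Cox6a1 / Cox6a2 lie below 50% in all 12.

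In the thick filament, Myh6, the fast cardiac myosin heavy chain of the adult mouse ventricle, was listed at 4049, 4928 and 5652 FPKM in heart and at 0.05, 0.615 and 0.87 FPKM in muscle. Myh4, the heavy chain of the fastest skeletal fibres, was the reverse, with 5279, 6880 and 10270 FPKM in muscle and at most 0.06 FPKM in heart. The regulatory light chains Myl2 and Mylpf shared this pattern, but Myl2, which slow fibres use too, was less cleanly divided. Myl2 was listed at 12170, 13810 and 15740 FPKM in heart and at 6.52, 248.5 and 762.1 FPKM in muscle, with the values of 6.52 and 20.5 FPKM in the pair of muscle libraries low in slow fibre genes. Cardiac myosin binding protein C, Mybpc3, was at 708.5, 774.1 and 807.5 FPKM in heart and at most 0.02 FPKM in muscle, a difference of 9.57 ± 0.0414. The light chain kinases divided in the same way, with Mylk3 between 168.9 and 210.3 FPKM in heart and at most 0.22 FPKM in muscle, and Mylk2 between 326.8 and 514.1 FPKM in muscle and at most 0.33 FPKM in heart. Over the list of thick filament proteins, 7 of 24 tested members were called higher in heart and 12 higher in muscle (6 and 12 on the median-ratio scale). For this and the lists that follow, the shares over all tested genes are 22.7% and 5.56%, and 10.8% and 10.2% on the median-ratio scale. Members near 0 in 1 tissue passed the filter on low values through the other tissue alone, so the counts describe the members. The M-band proteins Myom1 and Myom2, which tie thick filaments together, were at similar levels: Myom1 was listed at 292.6 to 369.7 FPKM in heart and 291.2 to 317.1 FPKM in muscle, a difference of 0.07 ± 0.0565 that did not pass.

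In the thin filament, all 3 troponin subunits changed form. Tnnt2, cardiac troponin T, was listed at 6697, 7317 and 8407 FPKM in heart and at 0.45, 2.29 and 4 FPKM in muscle, a difference of 11.26 ± 0.179. Tnni2, the fast troponin I, was at 8889, 9796 and 10300 FPKM in muscle and at 0.72, 1.30 and 2.05 FPKM in heart. The calcium-binding subunit Tnnc1, shared by heart and slow fibres, was at 3437, 3710 and 4013 FPKM in heart and at 0.83, 116.2 and 435.2 FPKM in muscle, so its muscle values ran from near 0 to over 400 while its fast counterpart Tnnc2 stayed between 11210 and 13620 FPKM. Actins were less exclusive. Actc1 was at 10480, 11020 and 11710 FPKM in heart and still at 489.7, 936.8 and 1515 FPKM in muscle, where Acta1 was at 24250, 25960 and 29260 FPKM. Acta1 was at 91.2 to 272.3 FPKM in 5 heart libraries and at 649.8 FPKM in heart estrus replicate 3. The thin filament list had 7 of 21 members higher in heart and 9 higher in muscle (6 and 12 on the median-ratio scale). Tpm1, the alpha-tropomyosin gene, was listed at 9022, 10280 and 10940 FPKM in heart and at 12580, 15830 and 20020 FPKM in muscle, which was not called at a difference of -0.63 but was called at -1.18 on the median-ratio scale.

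The proteins that anchor and cap the filaments were divided as well, some less sharply. Neb, nebulin, the long ruler of skeletal thin filaments, was at 243.0, 284.9 and 302.7 FPKM in muscle and at most 0.28 FPKM in heart, and its small cardiac relative Nebl at 27.6, 31.3 and 34.8 FPKM in heart and at most 0.21 FPKM in muscle. At the Z-disc, Actn3, the alpha-actinin of fast fibres, was at 2446, 2833 and 3744 FPKM in muscle and at most 0.18 FPKM in heart. Actn2, which both tissues use, was at 793.0, 853.7 and 896.2 FPKM in heart and at 151.8, 450.8 and 604.4 FPKM in muscle, a difference of 1.30 ± 0.255 that was not called on the median-ratio scale (0.74) or without the 3 libraries that stand apart (0.79). Myoz1 and Myoz2, calcineurin-binding Z-disc proteins, went apart, with Myoz1 at 1191 to 1599 FPKM in muscle and at most 0.27 FPKM in heart, and Myoz2 at 1083 to 1183 FPKM in heart and 16.2 to 296.5 FPKM in muscle. Fhl2, a LIM-domain protein, was at 939.2 to 1235 FPKM in heart and 0.38 to 2.08 FPKM in muscle. Of 33 Z-disc, costamere and intermediate filament genes, 7 (21.2%) were called higher in heart, near the share over all genes, and 11 (33.3%) higher in muscle (5 and 15 on the median-ratio scale). The titin cap gene Tcap, at 990.6 to 2065 FPKM in heart and 1440 to 2507 FPKM in muscle, and the small heat shock gene Hspb6, at 1399 to 1649 and 841.0 to 1664 FPKM, overlapped between the tissues. The leiomodin Lmod2, a thin filament nucleator, was higher in heart by 2.31 ± 0.403, while Lmod3 was at 48.6 to 61.7 FPKM in heart and 58.3 to 101.0 FPKM in muscle and was called only on the median-ratio scale, at -1.0.

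**Figure D4:**
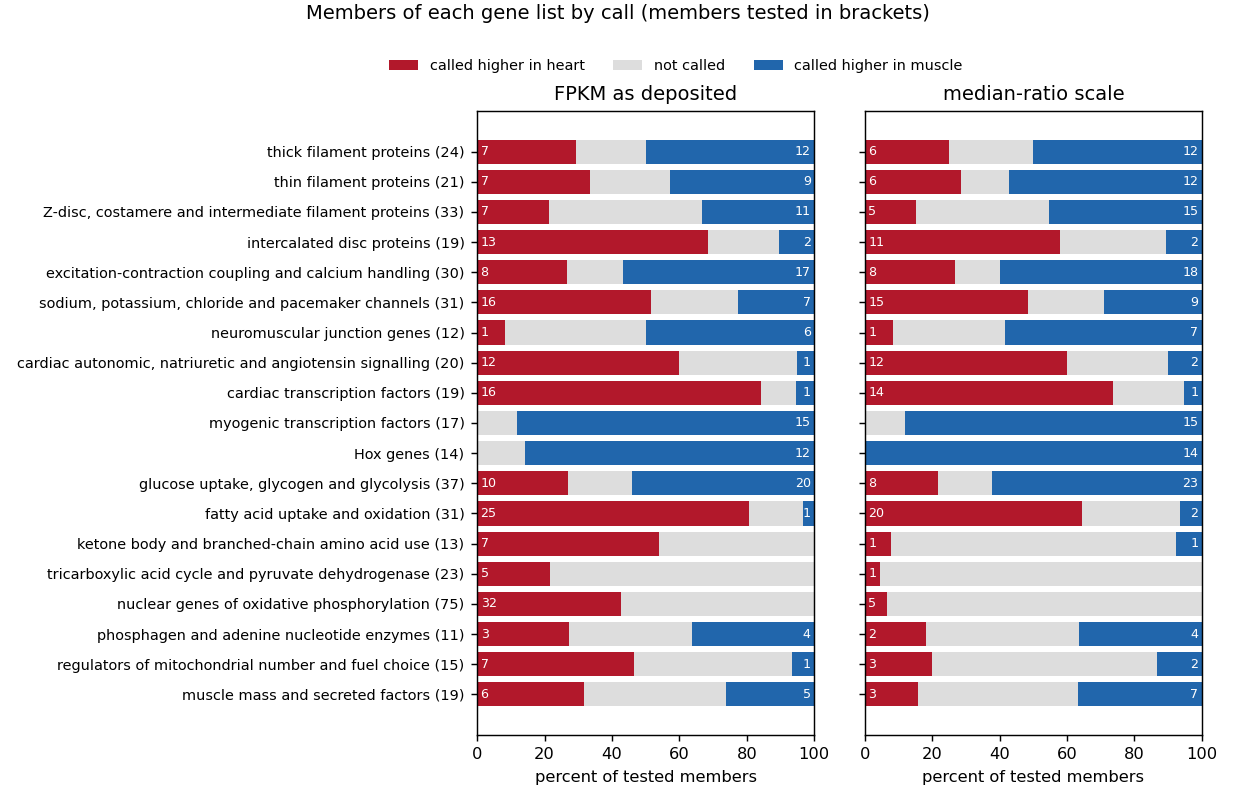
Percent of the tested members of 19 gene lists called higher in heart (red), not called (grey) or called higher in skeletal muscle (blue), with the number of members called in each bar, for FPKM as deposited (left) and on the median-ratio scale (right). Fatty acid and intercalated disc genes keep mostly red bars on both scales, while the red bar of oxidative phosphorylation shrinks from 32 of 75 members to 5.

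Promoters are shown for pairs and genes of this group from the RefSeq promoter table (GRCm38.p6): both actins, both troponin C genes, and the natriuretic peptide and muscle creatine kinase genes Nppa and Ckm. Tnnt3 and Tnni2 are named only. Each sequence is the 250 bases before the start, 5′ to 3′ on the strand of the gene. Capitals mark matches on either strand to CAGCTG, an E-box of the kind bound by myogenic factors, to GATAA, a core of GATA sites, to the MEF2 box or to the CArG box of serum response factor. These matches are letters in a window and were not tested as binding sites.
Actc1, chr2:114052876-114053125, minus strand: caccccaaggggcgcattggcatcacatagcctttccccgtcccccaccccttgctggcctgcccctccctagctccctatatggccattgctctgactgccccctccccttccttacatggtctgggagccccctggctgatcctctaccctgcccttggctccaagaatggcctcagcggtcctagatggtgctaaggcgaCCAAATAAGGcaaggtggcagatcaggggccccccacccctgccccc
Acta1, chr8:123894776-123895025, minus strand: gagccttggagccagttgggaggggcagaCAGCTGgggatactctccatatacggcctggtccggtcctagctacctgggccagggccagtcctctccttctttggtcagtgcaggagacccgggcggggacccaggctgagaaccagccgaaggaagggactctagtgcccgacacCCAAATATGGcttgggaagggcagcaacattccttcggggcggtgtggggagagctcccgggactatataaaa
Tnnc1, chr14:31208062-31208311, plus strand: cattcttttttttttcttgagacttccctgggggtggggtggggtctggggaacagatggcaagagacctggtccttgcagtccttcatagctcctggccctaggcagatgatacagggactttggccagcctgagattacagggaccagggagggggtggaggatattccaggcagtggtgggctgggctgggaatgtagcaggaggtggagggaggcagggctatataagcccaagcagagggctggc
Tnnc2, chr2:164779735-164779984, minus strand: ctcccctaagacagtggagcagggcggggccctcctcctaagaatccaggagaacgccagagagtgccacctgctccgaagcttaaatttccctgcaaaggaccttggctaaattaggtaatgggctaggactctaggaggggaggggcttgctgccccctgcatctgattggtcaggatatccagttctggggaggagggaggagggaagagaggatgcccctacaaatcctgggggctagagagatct
Nppa, chr4:148000472-148000721, plus strand: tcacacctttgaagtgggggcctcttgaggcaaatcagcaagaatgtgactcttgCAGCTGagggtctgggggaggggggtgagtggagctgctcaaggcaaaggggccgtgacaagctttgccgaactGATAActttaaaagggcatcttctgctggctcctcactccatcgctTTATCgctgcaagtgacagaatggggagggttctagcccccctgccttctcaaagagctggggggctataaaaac
Ckm, chr7:19410844-19411093, plus strand: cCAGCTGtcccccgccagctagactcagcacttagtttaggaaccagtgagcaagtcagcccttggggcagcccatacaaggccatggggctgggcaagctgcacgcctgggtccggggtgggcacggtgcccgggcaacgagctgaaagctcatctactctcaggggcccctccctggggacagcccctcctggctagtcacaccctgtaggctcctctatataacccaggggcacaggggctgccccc

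Both actin promoters hold 1 CArG box, starting 47 bases before the start of Actc1 and 73 bases before that of Acta1. Acta1, Nppa and Ckm hold 1 CAGCTG each and Nppa also 2 matches to GATAA, and neither troponin C promoter holds any of these motifs. Over all 32851 promoters of the table, windows of the same length held CAGCTG in 13%, GATAA in 22.6%, a MEF2 box in 2.92% and a CArG box in 1.47%. For the 11741 promoters of tested genes these shares were 12.2%, 14.5%, 1.79% and 1.19%. Promoters of genes called higher in muscle (659 promoters of 495 genes) held them in 19.0%, 17.3%, 4.70% and 1.97%, and promoters of genes called higher in heart (2676 promoters of 2037 genes) in 14.5%, 15.0%, 1.83% and 1.31%. For genes called higher in heart on both scales (1270 promoters of 953 genes) the shares were 15.6%, 16%, 2.13% and 1.97%. These shares are descriptions, without a test.

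Calcium release was divided nearly gene by gene. In both tissues a surface channel senses the action potential and a ryanodine receptor empties the sarcoplasmic reticulum, which SERCA pumps refill. Ryr2, the cardiac release channel, was listed at 76.3, 90.6 and 106.9 FPKM in heart and at most 0.07 FPKM in muscle, and Ryr1, the skeletal one, at 283.8, 302.3 and 344.2 FPKM in muscle and at most 0.03 FPKM in heart. The channel subunits Cacna1c and Cacna1s followed, with differences of 4.32 ± 0.0698 and -5.28 ± 0.0866. The pump Atp2a1, SERCA1 of fast fibres, was at 8702, 9870 and 12500 FPKM in muscle and 0.22, 0.25 and 0.55 FPKM in heart, while Atp2a2, SERCA2, was at 2888, 3309 and 3782 FPKM in heart and 7.11, 62.7 and 207.7 FPKM in muscle. Pln, phospholamban, the brake on SERCA2, was at 2744, 3048 and 3188 FPKM in heart and 0.55, 1.32 and 2.94 FPKM in muscle.

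The calcium-storing calsequestrins were also exchanged, with Casq2 at 431.3 to 508.6 FPKM in heart against 7.81 to 51.7 FPKM in muscle, and Casq1 at 1608 to 2495 FPKM in muscle against 3.23 to 14 FPKM in heart. The highest heart value of Casq1 was that of heart estrus replicate 3. Junctophilins, which hold the membranes together, were the exception: Jph1 was higher in muscle by 3.82 on the log2 scale, but Jph2 was listed at 195.5, 200.3 and 215.1 FPKM in heart and at 214.4, 250.5 and 333.2 FPKM in muscle, made up at least 70.4% of the pair in every library, and was not called on either scale. Of 30 tested genes of excitation-contraction coupling, 8 were called higher in heart and 17 higher in muscle (8 and 18 on the median-ratio scale), with a list median of -2.69 beside 0.46 for all genes. Hrc, a calcium-binding protein of the reticulum, differed by only 0.34 ± 0.0548 (448.9 to 545.6 FPKM in heart and 364.7 to 407.0 FPKM in muscle). Sarcolipin, Sln, was in the list of pairs as the skeletal partner of Pln, but did not behave as such here: it was at 0.87, 5.55 and 26.9 FPKM in muscle, and at 0.35, 0.705 and 334.1 FPKM in heart, the highest value being that of heart estrus replicate 3. Its difference of -0.47 ± 1.25 was not called (adjusted p = 0.733), and without that library Sln was called higher in muscle.

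Channels and pumps of the surface membrane were called in both directions. Of 31 tested sodium, potassium, chloride and pacemaker genes, 16 (51.6%) were called higher in heart and 7 (22.6%) higher in muscle, both above the 22.7% and 5.56% of all genes, and 15 and 9 on the median-ratio scale. The skeletal sodium channel Scn4a was at 78.9, 84.2 and 105.0 FPKM in muscle and still at 3.94, 4.69 and 6.97 FPKM in heart. The background potassium channel Kcnk3 was at 114.3 to 138.4 FPKM in heart against 0.24 to 0.66 FPKM in muscle, and Kcnip2, a subunit of the transient outward current, at 103.2 to 134.8 FPKM against at most 0.45 FPKM. The sodium channel beta subunit Scn4b was higher in muscle, with a difference of -3.08 ± 0.0934. The sodium pump subunit Atp1b2 was higher in muscle, with a difference of -3.36 ± 0.106.

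Junctions between cells separated the tissues in both directions. Of 19 intercalated disc genes, 13 were called higher in heart and 2 in muscle (11 and 2 on the median-ratio scale), and the summed level of the list was 1174 to 1455 FPKM in heart and 612.1 to 841.1 FPKM in muscle. Dsp, desmoplakin, which ties desmosomes to intermediate filaments, was at 120.8, 133.8 and 177.9 FPKM in heart and 0.03, 0.03 and 0.33 FPKM in muscle. Gja1, connexin 43, which passes the beat from cell to cell, was at 101.8, 146.4 and 188.7 FPKM in heart and 3.56, 4.70 and 6.49 FPKM in muscle, and Ctnna1, alpha-catenin, was 10.5 times higher in heart by the ratio of means. The 2 genes of the list called higher in muscle, Nrap and Xirp2, encode actin-binding proteins that skeletal fibres have at their myotendinous junctions, and Xirp2 was at 158.3 to 246.9 FPKM there against 23.5 to 29.5 FPKM in heart. Beta-catenin, Ctnnb1, was at 96.9 to 109.4 FPKM in heart and 51.3 to 56.7 FPKM in muscle and was not called, at 0.90.

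Of 12 tested neuromuscular junction genes, 6 (50%) were called higher in muscle, beside 5.56% of all genes. Agrin (Agrn), 1 of the 12 (8.33%), was called higher in heart, beside 22.7%. On the median-ratio scale the counts were 7 and 1. The list has 14 members, and a gene near 0 in heart, such as Chrne, passed the filter on low values through muscle alone. These counts therefore describe the members that passed and not the list. The adult acetylcholine receptor subunit Chrne was at 4.03, 7.20 and 8.41 FPKM in muscle and at most 0.05 FPKM in heart, and acetylcholinesterase, Ache, at 12.0, 17.1 and 20.8 FPKM in muscle and 0.88, 1.61 and 2.31 FPKM in heart. Of 20 genes of cardiac control, 12 (60%) were called higher in heart, beside 22.7% of all genes, and 1 (5%) in muscle, beside 5.56%. On the median-ratio scale the counts were 12 and 2. Members near 0 in muscle, such as Nppb and Corin, passed the filter through heart alone. This count too describes the members. Nppb, the B-type natriuretic peptide, was at 163.3, 465.6 and 625.6 FPKM in heart and at most 0.11 FPKM in muscle. Nppa, the atrial peptide, was at 134.6 to 358.0 FPKM in 5 heart libraries and at 3389 FPKM in heart estrus replicate 3, and at most 0.39 FPKM in muscle. Corin, the protease that activates these peptides, was at 38.1 to 69.7 FPKM in heart and at most 0.17 FPKM in muscle, and the angiotensin receptor Agtr1a was 15.9 times higher in heart.

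Transcription factors of the cardiac and skeletal lineages were divided in the same way. Of 19 cardiac factors, 16 were called higher in heart, and of 17 myogenic factors 15 were called higher in muscle and none in heart (14 and 15 on the median-ratio scale). Each list has 22 members, and the others did not reach the filter on low values. A factor that is near 0 in the other tissue, such as Myf6 or Nkx2-5, passed that filter through its own tissue alone, so these counts describe the members that passed and not the lists. Nkx2-5, a homeobox factor needed for heart formation, was at 66.4, 69.6 and 72.3 FPKM in heart and listed at 0 in all 6 muscle libraries. Hand2 was at 51.5 to 80.4 FPKM and Gata4 at 40.4 to 55.7 FPKM in heart, against at most 0.03 and 0.10 FPKM in muscle, and Hopx was 96.1 times higher in heart by the ratio of means. Myf6 (Mrf4), the myogenic factor of mature fibres, was at 47.6, 52.9 and 56.2 FPKM in muscle and listed at 0 in all 6 heart libraries. Tbx15, a factor of fast fibres, was at 71.9, 77.5 and 96.2 FPKM in muscle and 0.10 to 0.46 FPKM in heart.

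Members of the MEF2 family, which act in both tissues, differed from each other. Mef2c, listed here with the cardiac factors, was higher in muscle, at 118.7, 128.9 and 144.7 FPKM against 11.4, 12.2 and 12.9 FPKM in heart, a difference of -3.32 ± 0.0554. Mef2d was at 53.1 to 63.6 FPKM in heart and 58.2 to 62.9 FPKM in muscle, and Mef2a at 39.7 to 51.2 and 31.3 to 34.7 FPKM, and neither was called on either scale. Hox genes, which mark position along the body axis, had a summed level of 5.33 to 9.76 FPKM in heart and 137.8 to 159.4 FPKM in muscle. Of 38 Hox genes with a symbol in the files, 14 passed the filter on low values, 12 of these were called higher in muscle, and all 14 on the median-ratio scale. The filter passed a Hox gene here mainly through its level in muscle, and the other 24 are not described by this count. Hoxc10 was the highest, at 73.1, 79.3 and 87.4 FPKM in muscle and at most 0.05 FPKM in heart, and Hoxc9 and Hoxa10, at 8.42 to 10.9 and 8.35 to 10.4 FPKM in muscle, were listed at 0 in all heart libraries.

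Genes of glucose and of fatty acid use went in opposite directions. Of 37 genes of glucose uptake, glycogen and glycolysis, 20 were called higher in muscle and 10 higher in heart, with a list median of -1.08. Of 31 genes of fatty acid uptake and oxidation, 25 were called higher in heart and 1 in muscle, with a list median of 1.76, beside 0.46 for all genes. On the median-ratio scale the counts were 23 and 8 for the glucose list and 20 and 2 for the fatty acid list. Without the 3 libraries that stand apart they were 21 and 9, and 25 and 2.

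**Figure D5:**
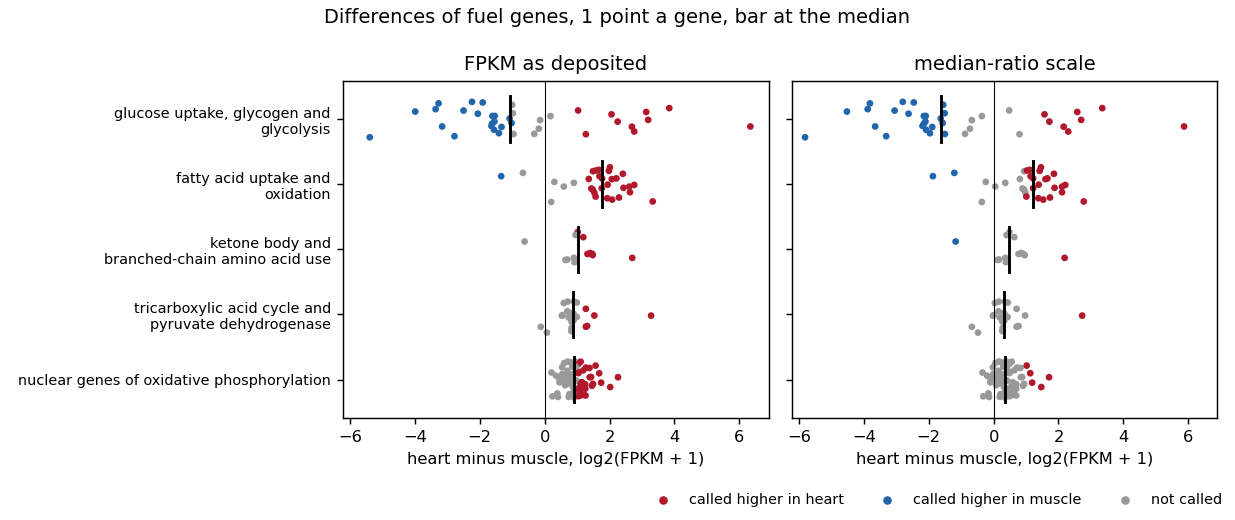
Heart minus muscle difference in log2(FPKM + 1) of each tested gene of 5 fuel lists, for FPKM as deposited (left) and on the median-ratio scale (right), with 1 point per gene coloured by its call and a black bar at the list median. The medians of glycolysis and fatty acid genes lie on opposite sides of 0 on both scales, at -1.08 and 1.76 on the deposited scale.

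Within the glucose list, related enzymes went in opposite directions. Pygm, muscle glycogen phosphorylase, was at 2318, 2629 and 3118 FPKM in muscle and 529.3, 561.9 and 614.1 FPKM in heart, while the brain form Pygb was at 198.7, 236.3 and 257.5 FPKM in heart and 1.39, 1.92 and 2.36 FPKM in muscle. Heart thus held both forms, with Pygb at 27.3 to 31.2% of the pair, and muscle at most 0.102%. Ldhb, the lactate dehydrogenase form that favours pyruvate, was 75 to 76.6% of its pair in heart and 2.47 to 16.7% in muscle. The monocarboxylate carriers followed, with Slc16a1, which cells use to take up lactate, at 73.8 to 85.3 FPKM in heart and 5.99 to 17.8 FPKM in muscle, and Slc16a3, known for lactate export, at 69.3 to 129.0 FPKM in muscle and 1.18 to 1.77 FPKM in heart.

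Hexokinases broke the rule of exchange: Hk1 was at 55.3, 64.6 and 67.7 FPKM in heart and 2.61, 3.46 and 4.47 FPKM in muscle, but the insulin-responsive Hk2 was at 52.6, 61.2 and 68.1 FPKM in heart and 41.5, 49.9 and 76.1 FPKM in muscle, which did not pass (0.18 ± 0.108, adjusted p = 0.130). The insulin-responsive glucose carrier Slc2a4 also overlapped, at 213.2 to 255.6 FPKM in heart and 243.3 to 296.5 FPKM in muscle. Aldolase A, Aldoa, was 5.66 times higher in muscle, at 10790 to 14370 FPKM. Gapdh, often taken as a reference gene, was at 4823, 5149 and 5717 FPKM in heart and 9399, 10650 and 11300 FPKM in muscle, a difference of -1.02 ± 0.0822 that turned to 0.14 after quantile normalization and was not called without the 3 libraries that stand apart (-0.93). For the enolases, Eno1 was higher in heart by 1.03 ± 0.0453 on the deposited scale but not called on the median-ratio scale (0.48) or without the 3 libraries (0.99), and Eno3 was higher in muscle on both.

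The fatty acid genes called higher in heart ran from uptake to oxidation. Lipoprotein lipase, Lpl, which frees fatty acids from lipoproteins, was at 1186, 1351 and 1395 FPKM in heart and 70.5, 252.4 and 362.1 FPKM in muscle. The fatty acid transporter Cd36 was 5.02 times higher in heart and Fabp3, the muscle fatty acid binding protein, was at 4253, 4460 and 5096 FPKM in heart and 222.1, 563.7 and 836.5 FPKM in muscle. In the mitochondrion, Hadhb of the trifunctional protein was higher in heart by 2.29 ± 0.141 and the electron carrier Etfb by 1.94 ± 0.0869. Ucp3, a mitochondrial carrier of skeletal muscle, was the gene called higher in muscle, at 43.0 to 84.4 FPKM against 9.23 to 53.6 FPKM in heart, and its groups overlapped. Pdk4, the kinase that turns off glucose oxidation in fasting, varied within both tissues, from 29.8 to 316.8 FPKM in heart and from 70.3 to 530.2 FPKM in muscle, and did not pass on the deposited scale (adjusted p = 0.230). It was called higher in muscle without the 3 libraries that stand apart (-1.45).

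For the shared end of oxidation the scale decided the calls. Of 75 nuclear genes of oxidative phosphorylation, 32 were called higher in heart and none in muscle, but only 5 on the median-ratio scale, with list medians of 0.91 and 0.36. The count was 43 in estrus libraries alone and 20 in diestrus libraries alone, and 24 without the 3 libraries that stand apart. The heart and muscle values did not overlap for 72 of the 75 genes, all with heart higher, beside 57.1% of all genes. Cox4i1, a subunit of cytochrome c oxidase called on both scales, was at 1630, 1932 and 2066 FPKM in heart and 461.3, 671.3 and 762.1 FPKM in muscle. Cox6a2, the muscle form of another subunit, was higher in heart by 1.14 ± 0.0849 and not called on the median-ratio scale, and both tissues are known to use it. The summed level of the list was 57180 to 66230 FPKM in heart and 23850 to 35660 FPKM in muscle.

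Of 23 genes of the tricarboxylic acid cycle, 5 (21.7%) were called higher in heart, near the 22.7% of all genes, and 1 (4.35%) on the median-ratio scale, beside 10.8%. With estrus libraries alone the count was 14. The gene called on both scales was Idh2, the mitochondrial NADP-dependent isocitrate dehydrogenase, at 962.6, 1010 and 1044 FPKM in heart and 45.6, 126.7 and 246.7 FPKM in muscle. Among 13 genes of ketone body and branched-chain amino acid use, 7 were called higher in heart and none in muscle, and 1 each way on the median-ratio scale. Oxct1, the enzyme that activates ketone bodies for use, was at 351.1, 361.1 and 389.7 FPKM in heart and 110.7, 153.5 and 183.8 FPKM in muscle, a difference of 1.32 ± 0.0904 against 0.77 on the median-ratio scale.

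Phosphocreatine and adenine nucleotide enzymes were divided. Ckm, muscle creatine kinase, was at 12220, 13510 and 16080 FPKM in muscle and 1574, 1726 and 1781 FPKM in heart, while the mitochondrial form Ckmt2 was at 1645 to 1891 FPKM in heart and 537.8 to 1364 FPKM in muscle and was not called (0.84). Ampd1, the AMP deaminase of skeletal muscle, was at 488.9, 643.2 and 785.6 FPKM in muscle and at most 0.12 FPKM in heart. Adssl1, which with it forms the purine nucleotide cycle, was 7.17 times higher in muscle, and Ampd3, the deaminase of other tissues, was higher in heart by 1.63 ± 0.0768. Myoglobin, Mb, the oxygen store of red muscle, was at 15540, 16500 and 17460 FPKM in heart and 998.7, 3789 and 5628 FPKM in muscle. Prkag3, an AMP kinase subunit of glycolytic muscle, was the regulator called higher in muscle, at 37.0 to 69.1 FPKM against 0.96 to 1.68 FPKM in heart. Of 15 regulators, 7 were called higher in heart and 1 in muscle, with 3 and 2 on the median-ratio scale and 4 and 1 without the 3 libraries that stand apart. Ppara and Sirt3, with differences of 1.37 and 1.05, were called in neither of those settings.

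Among secreted factors and genes of muscle mass, Mstn, myostatin, which limits skeletal muscle growth, was at 15.0, 26.2 and 38.4 FPKM in muscle and 0.03, 0.13 and 0.24 FPKM in heart. Fndc5, the precursor of irisin, was higher in heart than in this muscle, at 254.1, 276.6 and 301.5 FPKM against 27.4, 69.1 and 82.8 FPKM. Fgf1 and the cardiac factor Fgf16 were also higher in heart, Fgf16 at 5.15 to 8.19 FPKM against at most 0.09 FPKM. The kelch proteins Klhl41 and Klhl40, which stabilise the skeletal thin filament, were 6.92 and 5.26 times higher in muscle. Of 19 tested genes of this list, 6 were called higher in heart and 5 higher in muscle (3 and 7 on the median-ratio scale).

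Cells other than muscle cells moved with tissue as well. Of 10 endothelial markers, 9 were called higher in heart and 6 on the median-ratio scale, with a summed level of 410.2 to 457.2 FPKM in heart and 95.0 to 154.6 FPKM in muscle. Of 8 macrophage markers, 6 were called higher in heart on both scales, with sums of 184.5 to 247.9 and 39.0 to 68.4 FPKM. Fibroblast markers gave 4 of 9 in heart on the deposited scale and 1 on the median-ratio scale, where 1 was higher in muscle. The 4 tested white adipocyte markers were all called higher in muscle, with sums of 27.5 to 264.7 FPKM there and 0.74 to 4.48 FPKM in heart, and so were 3 of 4 tendon and 2 of 4 Schwann cell markers. The 4 adipocyte markers passed the filter on low values mainly through muscle, so their count describes these markers and not the list of 5. None of the 5 erythroid markers was called. The sums of T cell markers stayed at 6.29 FPKM or less, and those of B cell markers at 2.02 FPKM or less, in all 12 libraries. The part of these cells in the gene lists above was not tested.

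The difference between heart and muscle was then compared between phases. With 3 libraries in each group, the interaction of tissue and phase was called for 2 genes of 11452 (0.0175%), Mss51 and Mad2l1bp, 3 genes (0.0262%) had an adjusted p of at most 0.05 at any size, and 1577 genes (13.8%) had an unadjusted p under 0.05. Mss51, which encodes a mitochondrial protein of skeletal muscle, was listed at 17.7 ± 0.592 FPKM (SD, n = 3) in estrus muscle and 6.78 ± 0.978 FPKM in diestrus muscle, and at 0.313 ± 0.0603 and 0.257 ± 0.0702 FPKM in heart. The interaction was -1.21 ± 0.139 on the log2 scale (limma, adjusted p = 0.0178). Mad2l1bp, a partner of a mitotic checkpoint protein, was at 7.36 ± 0.241 FPKM in estrus muscle and 14.2 ± 0.840 FPKM in diestrus muscle, with 12.3 ± 0.797 and 11.0 ± 1.29 FPKM in heart, an interaction of 1.00 ± 0.120 at the same adjusted p. Neither call held with the replicate number as a block, where no gene was called. The count also turned on single libraries: it was 0 without heart estrus replicate 1 or 2, heart diestrus replicate 1 or 3 or muscle estrus replicate 2, it was 1 without muscle estrus replicate 3 or muscle diestrus replicate 1 or 2, and it was 100 without muscle estrus replicate 1, when both remaining estrus muscle libraries are those low in slow fibre genes.

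No gene was called for phase across both tissues (0%) in limma, and 1788 genes (15.6%) had an unadjusted p under 0.05. The 3 genes with the lowest p, none of which passed, were Mrln, Banp and Serhl, with an adjusted p of 0.0771 each. Mrln, which encodes myoregulin, a peptide that inhibits SERCA in skeletal muscle, was at 62.3 ± 3.91 FPKM in estrus muscle and 39.8 ± 3.84 FPKM in diestrus muscle, and at 1.40 ± 0.119 and 0.780 ± 0.235 FPKM in heart, a coefficient of 0.54 ± 0.0751. Among the paired genes, Sln was at 1.58 with estrus libraries alone, where it was not called, and at -2.51 with diestrus libraries alone, where it was called higher in muscle, and Actn2 was not called with diestrus libraries alone (0.74).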

How the data were processed

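Total RNA was sequenced on BGISEQ-500. Per the labels and the study's methods, the authors filtered reads with SOAPnuke, aligned them to GRCm38.p5 transcripts with Bowtie2 2.2.5 and estimated expression with RSEM 1.2.8. The deposited values, which the sources do not name, were taken as FPKM set by the authors because the library sums differ. Of 20414 Entrez identifiers, 20265 matched a RefSeq symbol. From these, genes averaging 1 FPKM or more across heart and muscle were kept, and log2(FPKM + 1) was fitted with limma 3.58.1 in R 4.3.3, with tissue and phase as terms and an intensity trend, and p-values were adjusted by the Benjamini-Hochberg method over all tested genes. The study took 3 mice per phase as biological replicates and 15 tissues from each, and p-values measure the spread between libraries. The data hold no counts, and the depth behind the values of each library is unknown.

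Genes named were all members of the pairs, up to 4 called genes in each direction and up to 2 uncalled genes with the highest levels in each list, the 10 largest non-overlapping differences each way, and the genes of the interaction and phase terms. The members and lists were chosen with earlier results of these data known. The fits were tested on simulated data with independent noise in each gene and library. The simulation held no shared mice, outlying libraries or shift of scale, so it cannot show how the fits handle these. Alternatives changed the pseudocount, filter, scale, model, libraries and threshold, and leaving out the 3 libraries that stand apart was added after seeing the data. Some genes of the lists are counted but not reported here by name.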

Additional observations from a re-analysis of the deposited data

Results flagged for a closer look

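In 14 of the 310 groups of 6 libraries looked at (4.52%), the highest or lowest library lay far from the other 5, where chance gives about 1 in 20. In heart estrus replicate 3 these were Nppa at 3388.83 FPKM, Sln at 334.1 FPKM and Casq1 at 14.01 FPKM. In the other heart libraries they were Jph2 at 215.08 FPKM in estrus replicate 1, Ak1 at 273.16 FPKM and Esrra at 66.06 FPKM in estrus replicate 2, Adssl1 at 95.57 FPKM in diestrus replicate 1, Pgam1 at 77.85 FPKM and Aldoa at 2446.43 FPKM in diestrus replicate 2, and Myom2 at 215.05 FPKM in diestrus replicate 3. In muscle they were Tmod4 at 322.69 FPKM and Jup at 29.91 FPKM in estrus replicate 2, and Tbx3 at 0.91 FPKM and Tbx15 at 96.19 FPKM in estrus replicate 3.

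The difference between heart and muscle itself differed between estrus and diestrus for Mss51, with an interaction of -1.21, and for Mad2l1bp, with an interaction of 1.00, on the log2 scale. Neither call held with the replicate number as a block or without the 3 libraries that stand apart, and the call was lost in 10 alternatives for Mss51 and in 14 for Mad2l1bp.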

How the results depend on the processing

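The calls higher in heart were 2605, and 1232 on the median-ratio scale, 1255 after quantile normalization and 553 with a threshold of 2 on the log2 scale, with 2491 to 2680 when 1 library was left out. The calls higher in muscle were 637, and 1166, 1099 and 283 under the same alternatives, with 621 to 645 when 1 library was left out. Pairs with opposite calls numbered 26 to 27 without 1 library. The interaction gave 2 genes, 1 with a pseudocount of 0.1 and 1 on each of the median-ratio and quantile scales, 0 at a threshold of 2, 9 in a fit of all 90 libraries, 5 without the 3 libraries that stand apart, and 0 to 100 without 1 library. Phase gave 0 genes, 1 in the fit of all 90 libraries and 0 to 1 without 1 library, the 1 being without heart estrus replicate 3. The mean correlation within a tissue was 0.992 without a filter and 0.98 with a pseudocount of 0.1, and between tissues 0.889 and 0.723, with 0.986 to 0.987 and 0.777 to 0.785 without 1 library. Gapdh turned from -1.02 to 0.14 on the quantile scale. The cause of these changes was not tested. Of 183 named genes, 131 kept their call under every alternative run. With the replicate number as a block, the calls were 2605 and 637, the pairs 26, the interaction 0 and phase 0. Deviations of same-numbered heart and muscle libraries correlated at 0.195 to 0.24 in diestrus and at -0.0431 to 0.0594 in estrus. For other numbers the correlations were -0.132 to -0.087 in diestrus and -0.0852 to 0.0509 in estrus. Deviations were taken from the mean of their group and cancel within it, so the values for other numbers are tied to those for the same number. Of 6 heart libraries, 4 were closest to the muscle library of their own number. The labels do not tie a number to a mouse and not every pair passed 0.1, and the fit without the block was kept, so whether the numbers mark mice is not settled. Without counts, the depth behind the values of each library is unknown and limits what can be said of genes listed near 0.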

Other observations

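Genes that both striated muscles share were sought by a rule chosen after the values were seen: a mean of at least 10 FPKM in both tissues and at least 4 times the highest mean of the other 13 tissues. It found 84 genes, of which 5 were called higher in heart, 20 higher in muscle and 59 in neither direction, and 44 were called on neither scale. Tpm1, with means of 10260 FPKM in heart and 15970 FPKM in muscle, and Mb, with 16480 and 3360 FPKM, were among them. Asb11, which encodes a subunit of a ubiquitin ligase, had means of 101.6 and 101.2 FPKM, and Fsd2, a little described gene, had 94.8 and 95.1 FPKM. Cavin4, a caveolar protein of muscle, had 61.3 and 70.5 FPKM, and its lower mean was 33.8 times the highest of the other tissues.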
